A study of Mus musculus with 37 samples.

Results

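Chromatin accessibility was compared between parvalbumin-positive (PV+) nuclei and the unbound nuclei of the same tissue, the nucleus accumbens of saline-treated mice. The comparison used 8 of the 37 libraries of the series, chosen by their titles: 4 of pulled-down nuclei (PV IP, replicates 1, 2, 4 and 5) and 4 of the unbound fraction (PV UF, with the same replicate numbers). The wider study profiled PV+ and somatostatin-positive nuclei of this region after saline or amphetamine. ATAC-seq was used throughout, in which the Tn5 transposase inserts adapters into accessible DNA, so that the read count of a region follows how open it is.

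All 8 libraries came from compound heterozygous mice that carry Pvalb-IRES-Cre and the Cre-dependent INTACT allele Rosa-LSL-Sun1-GFP, which puts a green fluorescent protein on the nuclear envelope. The mice were between postnatal days 60 and 210, and each library came from the accumbens of a single animal. After a mock injection on the preceding day they received saline intraperitoneally and stayed in an open field for 60 min. Nuclei were captured with an anti-GFP antibody and magnetic beads (IP), and the supernatant of that capture is the unbound fraction (UF). All buffers used to isolate the nuclei contained 5 mM sodium butyrate, which blocks histone deacetylases, for both fractions alike. The tag depends on Cre driven by Pvalb, so it marks every cell that has expressed Pvalb, and UF can still hold tagged nuclei that escaped the beads. No group without Cre was compared here.

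PV+ cells of the striatum are fast-spiking GABA interneurons that inhibit the spiny projection neurons, the principal cells of this region. They are born in the medial ganglionic eminence and depend on fast sodium and potassium channels to fire at high rates. In most tissues the chromatin at gene starts is open in many cell types, whereas open regions inside and between genes, many of them enhancers, differ more from one cell type to the next.

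Total counts were 5.22, 9.25, 9.57 and 7.56 M in the IP libraries and 5.67, 14.7, 12.5 and 9.27 M in the UF libraries, in the order of replicates 1, 2, 4 and 5, which is kept for every list of values here. Of 14 PV interneuron genes 12 were higher in IP and 1 was lower, and of 14 oligodendrocyte genes 13 were lower. The PV list thus moved in the direction of the label, but the lists were chosen with earlier results of these data known. Lower oligodendrocyte genes do not by themselves single out PV nuclei. Of 20 spiny projection neuron genes 11 were lower, as were 5 of 6 oligodendrocyte precursor, 4 of 11 microglia and 2 of 11 astrocyte genes, and none of these was higher (11.8% of all genes were higher and 13.2% lower). With the replicate number as a block, 1 astrocyte gene was higher and 4 were lower. The remaining neuron lists were mixed. Of 10 somatostatin interneuron genes 3 were higher and 1 lower (5 and 2 with the block). Of 6 cholinergic interneuron genes 2 were higher and none lower. Of 10 cortical glutamatergic neuron genes 1 was higher and 2 were lower (2 and 4 with the block). A pair of libraries stood apart. IP replicate 4 had 700.0 summed CPM (counts scaled to a common library size) over the endothelial markers, against 352 to 420.1 in the other IP libraries and 335 to 407 in UF. UF replicate 5 had 871 summed CPM over the mural (vessel wall) markers, against 273 to 311 in the other UF libraries and 291 to 500.2 in IP. Of 16 endothelial genes 7 were higher and 1 lower in IP, and 6 and 1 without IP replicate 4. Of 9 mural genes 4 were higher and 1 lower, and 3 and 1 without UF replicate 5 (4 and 2 with the block). In a bulk fraction, fewer cells of a type and less accessibility per cell cannot be told apart.

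With the scaling used, PV+ nuclei and unbound nuclei differed in the accessibility of nearly as many regions in one direction as in the other. Of 182547 tested regions, each 200 bp wide, 39267 were higher in IP (21.5%) and 42572 were lower (23.3%), with edgeR's quasi-likelihood test at a Benjamini-Hochberg adjusted p under 0.05 (called, below). When counts were summed over each protein-coding gene with 2 kb on either side, 2000 of 16957 genes were higher (11.8%) and 2232 were lower (13.2%). With the replicate number as a block, 3100 genes were higher (18.3%) and 3511 lower (20.7%), among them 1999 of the 2000 and all 2232 called without it. The median log2 fold change (also log2 ratio), always IP over UF, was -0.01 over genes and -0.02 over regions. The balance of directions depends on how libraries are scaled. Of the called genes 47.3% were higher, against 51.3% with DESeq2's size factors and 43.7% with library totals. DESeq2's Wald test called 2527 genes higher and 2341 lower. Errors given after a fold change are standard errors, with a median of 0.17 over genes and 0.40 over regions.

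The place of a region mattered for whether it differed. Regions were sorted into those within 1 kb of either end of a gene, those elsewhere in a gene body, those outside genes up to 100 kb away, and those over 100 kb from any protein-coding gene. At gene ends 18.2% of 25916 regions were called, 9.95% higher and 8.21% lower. In gene bodies 47.9% of 91982 were called, 24.5% higher and 23.4% lower. Outside genes 47.8% of 44462 were called, 20.8% higher and 27.1% lower. Over 100 kb away 58.6% of 20187 were called, 24.4% higher and 34.1% lower. Regions over 100 kb away were thus called more often than the other classes. Both classes outside genes held more lower than higher regions, while gene ends and bodies held slightly more called higher than called lower. In bodies the regions without overlap went the other way, 19113 with IP above UF and 20787 with IP below. Classes were not recounted with other scalings. The median absolute log2 fold change was 0.33 at gene ends, 0.94 in gene bodies, 0.95 outside genes and 1.40 over 100 kb away. Levels ran the opposite way: the median was 6.24 CPM at gene ends, 3.14 in bodies, 3.01 outside and 2.53 over 100 kb away. The median standard error went from 0.32 at gene ends to 0.45 over 100 kb away. The part of count level and of the filter on low counts in these class differences was not tested.

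**Figure D1:**
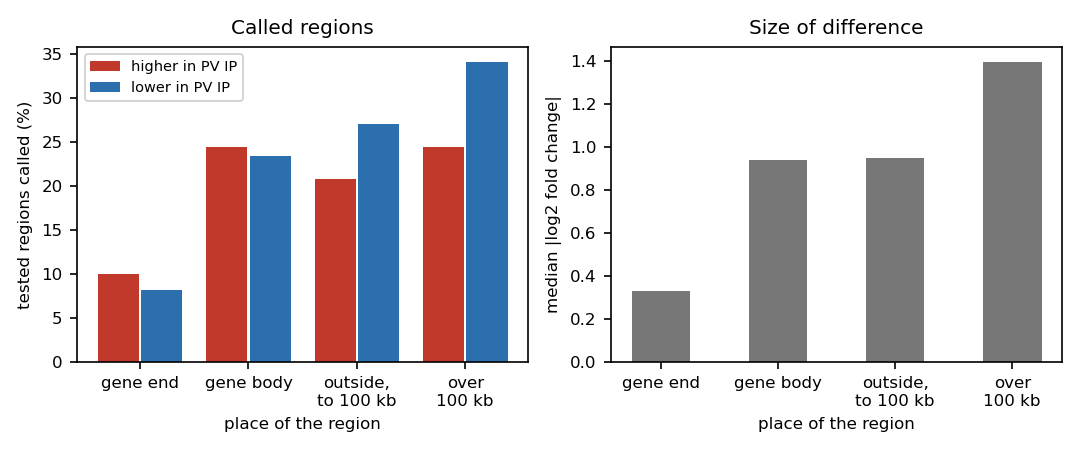
Left, percent of tested regions called higher (red) and lower (blue) in PV IP by place of the region relative to protein-coding genes. Right, median absolute log2 fold change of the same classes. Gene ends have the smallest shares (9.95% and 8.21%) and regions over 100 kb from a gene the largest lower share (34.1%).

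The fraction of all counts that fell in each class did not separate IP from UF. Gene ends took 31.4 ± 3.03% of counts in the IP libraries and 32.5 ± 2.28% in the UF libraries (SD, n = 4 each, two-sided exact permutation p = 0.571), and regions over 100 kb away took 8.36 ± 0.98% and 8.06 ± 0.52% (exact permutation p = 0.6). Chromosome X differed. It took 1.67, 1.65, 1.53 and 1.55% of the counts in the IP libraries and 1.82, 1.75, 1.75 and 1.805% in the UF libraries. Every IP library lay below every UF library, at means of 1.60 ± 0.07% and 1.78 ± 0.04% (SD, n = 4 each, two-sided exact permutation p = 0.0286, the smallest that 4 against 4 allow; 0.125 within the 4 replicate numbers, the smallest that 4 pairs allow). Of its 3412 tested regions 11.2% were higher and 24.1% lower, with a median log2 fold change of -0.19, where single autosomes had 18.3 to 23.2% higher and 20.3 to 25.1% lower. Chromosome Y took 0.0520 to 0.0868% of the counts in IP and 0.0772 to 0.104% in UF, so every library held counts from it, and its ranges overlapped (exact permutation p = 0.2).

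Promoters were examined where a tested region overlapped the stretch from 250 bases before to 50 bases after a RefSeq gene start by at least 100 bp. Of 7099 such regions 518 were higher in IP (7.30%) and 640 lower (9.02%). Sequences of 8 of them are shown, 4 higher and 4 lower, chosen after their values were seen, for their strong differences. Most belong to PV or microglial genes or to families described further on. They are from RefSeq on GRCm38.p6, the assembly of mm10, 5′ to 3′ on the gene's strand, and the coordinates given with the values are those of the 300 bases shown. Capitals mark matches, on either strand, to 5 motifs: AP-1 (TGANTCA, the site of Fos and Jun), the oestrogen-related receptor site (TCAAGGTCA), which contains the nuclear receptor core (AGGTCA), the Sox core (CATTGT) and the E-box CAGCTG of basic helix-loop-helix proteins. The first 4 belong to higher regions and the last 4 to lower ones.
Pvalb: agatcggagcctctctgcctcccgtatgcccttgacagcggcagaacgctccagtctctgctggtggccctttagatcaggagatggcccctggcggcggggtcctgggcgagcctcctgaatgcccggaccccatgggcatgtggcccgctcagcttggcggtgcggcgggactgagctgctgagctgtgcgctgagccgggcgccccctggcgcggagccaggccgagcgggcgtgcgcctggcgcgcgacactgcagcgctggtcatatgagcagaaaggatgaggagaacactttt
Syt2: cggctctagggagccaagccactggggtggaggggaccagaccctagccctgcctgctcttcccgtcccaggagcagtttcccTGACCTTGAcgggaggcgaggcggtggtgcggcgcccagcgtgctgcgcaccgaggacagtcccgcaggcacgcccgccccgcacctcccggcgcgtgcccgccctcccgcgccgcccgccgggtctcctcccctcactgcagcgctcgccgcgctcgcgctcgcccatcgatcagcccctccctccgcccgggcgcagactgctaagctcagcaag
Btbd11: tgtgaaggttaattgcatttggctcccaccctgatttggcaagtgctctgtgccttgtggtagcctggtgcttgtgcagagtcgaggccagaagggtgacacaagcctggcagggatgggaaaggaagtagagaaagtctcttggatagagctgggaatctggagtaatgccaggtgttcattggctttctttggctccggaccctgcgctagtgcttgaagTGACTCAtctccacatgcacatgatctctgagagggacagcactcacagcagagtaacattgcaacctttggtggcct
Esrrb: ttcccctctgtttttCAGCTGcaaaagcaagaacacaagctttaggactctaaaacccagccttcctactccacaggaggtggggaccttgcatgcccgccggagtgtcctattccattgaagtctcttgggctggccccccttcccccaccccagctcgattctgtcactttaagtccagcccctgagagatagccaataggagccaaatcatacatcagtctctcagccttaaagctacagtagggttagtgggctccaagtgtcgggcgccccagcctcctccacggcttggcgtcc
Cd68: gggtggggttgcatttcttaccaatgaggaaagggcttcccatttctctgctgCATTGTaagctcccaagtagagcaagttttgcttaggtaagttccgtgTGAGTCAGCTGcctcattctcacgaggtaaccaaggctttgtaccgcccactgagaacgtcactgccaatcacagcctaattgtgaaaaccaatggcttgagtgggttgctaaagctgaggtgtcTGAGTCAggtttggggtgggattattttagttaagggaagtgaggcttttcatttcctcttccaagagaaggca
Tmem144: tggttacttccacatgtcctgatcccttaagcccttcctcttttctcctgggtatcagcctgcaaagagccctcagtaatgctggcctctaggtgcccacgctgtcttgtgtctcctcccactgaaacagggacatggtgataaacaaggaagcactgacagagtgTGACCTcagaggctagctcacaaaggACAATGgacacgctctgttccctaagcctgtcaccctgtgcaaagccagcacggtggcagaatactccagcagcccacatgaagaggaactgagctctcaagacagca
Fndc9: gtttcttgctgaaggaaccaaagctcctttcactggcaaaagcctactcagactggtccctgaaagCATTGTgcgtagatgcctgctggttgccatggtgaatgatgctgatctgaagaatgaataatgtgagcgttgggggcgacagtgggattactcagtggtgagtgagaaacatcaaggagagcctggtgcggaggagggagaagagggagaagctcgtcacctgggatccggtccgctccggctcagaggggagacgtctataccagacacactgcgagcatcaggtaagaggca
Kcnip3: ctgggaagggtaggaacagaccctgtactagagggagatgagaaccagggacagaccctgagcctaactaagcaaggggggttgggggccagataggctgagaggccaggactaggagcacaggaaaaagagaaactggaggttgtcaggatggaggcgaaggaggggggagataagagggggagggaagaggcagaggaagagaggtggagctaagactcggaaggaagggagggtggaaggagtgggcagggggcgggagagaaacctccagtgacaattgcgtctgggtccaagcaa

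The region over the Pvalb promoter (chr15:78204188-78204487, minus strand) had 12.4, 16.96, 17.9 and 28.02 CPM in IP and 3.95, 2.42, 3.18 and 2.67 CPM in UF (log2 ratio 2.65 ± 0.29, adjusted p = 1.16e-05). The 300 bases hold none of the 5 motifs, which says only that these letters are absent from this window. Syt2 encodes the synaptotagmin that senses calcium at fast-releasing terminals, and the region over its promoter (chr1:134646362-134646661, plus strand) had 18.8, 14.3, 17.3 and 16.8 CPM in IP and 3.43, 2.62, 5.06 and 3.67 CPM in UF (log2 ratio 2.17 ± 0.26, adjusted p = 1.78e-05). The oestrogen-related receptor site lies there on the opposite strand, as TGACCTTGA. Btbd11, an ankyrin-repeat protein gene prominent in PV cells, had 21.1, 16.1, 9.85 and 11.1 CPM in IP and 3.09, 3.09, 2.53 and 3.22 CPM in UF at the promoter shown (chr10:85598161-85598460, plus strand; log2 ratio 2.28 ± 0.30, adjusted p = 2.63e-05), which holds an AP-1 match. The promoter region of Esrrb (chr12:86421394-86421693, plus strand), which encodes an oestrogen-related receptor, had 22.1, 16.02, 13.2 and 20.6 CPM in IP and 4.12, 4.37, 4.33 and 6.67 CPM in UF (log2 ratio 1.88 ± 0.26, adjusted p = 4.19e-05) and holds an E-box. In each of these 4 regions all IP libraries lay above all UF libraries, which the choice for strong differences favoured. The groups did not overlap in 40.4% of all tested regions.

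Among the lower promoters, that of Cd68, a lysosomal protein of microglia and macrophages (chr11:69666121-69666420, minus strand), had 4.74, 1.98, 1.95 and 2.06 CPM in IP and 17.9, 16.9, 16.6 and 18.8 CPM in UF (log2 ratio -2.76 ± 0.30, adjusted p = 1.08e-05). It holds a Sox match and a pair of AP-1 matches, of which the first overlaps an E-box. Tmem144 had 4.34, 1.46, 3.09 and 3.39 CPM in IP and 22.5, 9.68, 11.9 and 24.9 CPM in UF at the start shown (chr3:79852719-79853018, minus strand; log2 ratio -2.51 ± 0.36, adjusted p = 5.61e-05), while its summed gene did not pass the test (-0.41 ± 0.18, adjusted p = 0.114). The window holds a nuclear receptor core and a Sox match. Fndc9, at chr11:46235307-46235606, plus strand, had 8.69, 4.79, 11.8 and 7.52 CPM in IP and 41.9, 34.6, 38.04 and 39.1 CPM in UF (log2 ratio -2.23 ± 0.24, adjusted p = 9.39e-06) and holds a Sox match. The Kcnip3 start shown (chr2:127521343-127521642, minus strand), of the gene for a calcium-binding partner of Kv4 channels, had 4.94, 4.79, 7.91 and 5.01 CPM in IP and 17.2, 20.5, 18.4 and 16.1 CPM in UF (log2 ratio -1.66 ± 0.24, adjusted p = 5.82e-05). No IP library reached a UF library in any of the 4, which the same choice favoured.

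Over all promoter regions, AP-1 matches stood in 9.46% of the 518 higher, 8.75% of the 640 lower and 4.19% of the 5941 regions not called, and in 5.81% of all 17028 promoter windows. The E-box stood in 22.2%, 17.8%, 15.1% and 16.3%, the Sox core in 5.60%, 11.3%, 5.94% and 8.19%, and the nuclear receptor core in 15.4%, 7.19%, 10.7% and 13.6%, in the same order. The longer oestrogen-related receptor site was found in 4 of the higher and 0 of the lower regions, and in 0.236% of those not called. A further 11 motifs were counted but are not marked. In the same order, CRE (TGACGTCA) stood in 3.47%, 1.56%, 3.08% and 2.64%, the homeodomain core TAATTA in 2.896%, 2.50%, 1.99% and 3.26%, the E-box CAGATG in 15.3%, 15.5%, 10.1% and 12.9%, and the forkhead site (TGTTTAC) in 2.896%, 2.03%, 2.27% and 2.57%. The Ets site (GAGGAAGT) stood in 1.93%, 3.75%, 2.63% and 2.795%, the Klf site (CCCCACCC) in 12.5%, 17.5%, 12.8% and 12.4% and the Egr site (GCGTGGGCG) in 0.579%, 1.25%, 1.498% and 0.998%. The Mef2 site stood in 2.896%, 1.88%, 1.04% and 1.93% and the Ctcf core in 13.5%, 15.3%, 19.5% and 15.6%. The Rfx core was in 0 higher, 11 lower and 39 uncalled regions and the palindromic nuclear factor I site in 1 uncalled region (0.611% and 0.0294% of all windows). Each motif was searched on both strands. Base composition moved with the calls: the median number of CpG per window was 14 in higher, 17 in lower and 23 in uncalled regions, at a median GC content of 60.3%, 60.0% and 63.0%. These shares are a description of letters, and the part of base composition in them was not tested.

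The strongest single genes were a mixture of interneuron genes, channel subunits and genes best known from other organs. Genes were named by a rule on fold change among called genes with an average log2 CPM of at least 3 and no overlap between groups, which 1326 higher and 1576 lower genes met. Over all genes the groups did not overlap in 4548 of 16957 genes (26.8%), with IP above UF in 2011 and below in 2537. An open region within a gene does not show that the gene is transcribed, and a gene counted from a single region carries that region's value only.

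Avp, which encodes the peptide vasopressin (chr2:130580620-130582588), had 19.9, 15.7, 4.87 and 46.7 CPM in IP and 2.62, 1.10, 1.68 and 2.18 CPM in UF (log2 ratio 3.59 ± 0.56, adjusted p = 0.000442). The 4 IP libraries ran over a wide range but all lay above UF, and the gene's single tested region lies just outside it. Kmo, the kynurenine 3-monooxygenase gene (chr1:175632193-175660853), had 18.8, 16.8, 5.62 and 27.4 CPM in IP and 3.71, 0.947, 0.838 and 3.33 CPM in UF (log2 ratio 3.08 ± 0.53, adjusted p = 0.000816), and its neighbour Wdr64 (chr1:175698569-175815734) had 52.95, 34.002, 22.5 and 33.8 CPM in IP and 8.28, 3.63, 4.098 and 6.79 CPM in UF (log2 ratio 2.70 ± 0.31, adjusted p = 5.46e-05). All 5 regions tested in this pair were higher. Fam240b (chr13:64481246-64497792) had 15.02, 20.3, 9.49 and 14.1 CPM in IP and 1.74, 1.03, 1.30 and 2.43 CPM in UF (log2 ratio 3.21 ± 0.35, adjusted p = 4.14e-05), again with no overlap.

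Subunits of BK channels, the calcium-activated potassium channels that shorten the action potential, stood high in this list. Kcnmb2, the beta2 subunit (chr3:31901861-32200180), had 339, 274, 181 and 350.5 CPM in IP and 73.03, 51.1, 55.2 and 60.3 CPM in UF (log2 ratio 2.26 ± 0.19, adjusted p = 1.02e-05). Lrrc38, a leucine-rich repeat subunit of the same channels (chr4:143347076-143371032), had 12.5, 29.5, 15.5 and 18.8 CPM in IP and 1.96, 2.92, 4.38 and 2.56 CPM in UF (log2 ratio 2.65 ± 0.32, adjusted p = 8.27e-05), and all 4 of its regions were higher. For both genes the lowest IP library was above the highest UF library by more than the range within UF.

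Several higher genes are known from outside the brain. Gys2, the liver glycogen synthase, had 40.99, 17.1, 20.4 and 40.8 CPM in IP and 6.10, 4.42, 4.56 and 4.87 CPM in UF (log2 ratio 2.59 ± 0.31, adjusted p = 6.51e-05). Tcap, the sarcomere protein telethonin, had 17.3, 23.5, 9.24 and 8.01 CPM in IP and 1.96, 3.16, 3.17 and 2.94 CPM in UF (log2 ratio 2.33 ± 0.36, adjusted p = 0.000428). Lyz2, a lysozyme of macrophages, had 26.5, 27.2, 13.5 and 22.4 CPM in IP and 4.58, 2.84, 3.26 and 3.84 CPM in UF (log2 ratio 2.65 ± 0.28, adjusted p = 3.38e-05), with 3 of 3 regions higher. These groups did not overlap either. Gstm2, a glutathione transferase, was at 2.64 ± 0.35, Sh2d2a, a T-cell adaptor, at 2.57 ± 0.30 and the odorant receptor gene Olfr287 at 2.58 ± 0.30. Sds, a serine dehydratase gene, was at 2.45 ± 0.31, but its single region is shared with Plbd2 (0.73 ± 0.13). The list also held Pvalb itself (52.2 to 107 CPM in IP and 7.73 to 10.9 CPM in UF) and Kcns3 (2.31 ± 0.23), a silent partner of Kv2 channels.

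The strongest lower genes included those of the oligodendrocyte lineage. Ermn, which encodes the myelin protein ermin (chr2:58045115-58052864), had 2.55, 0.872, 1.75 and 1.47 CPM in IP and 13.1, 11.1, 11.8 and 18.4 CPM in UF (log2 ratio -3.09 ± 0.34, adjusted p = 4.56e-05). Gpr17, a receptor of maturing oligodendrocyte precursors (chr18:31942999-31949890), had 4.07, 1.99, 5.50 and 3.27 CPM in IP and 26.8, 18.5, 19.7 and 35.6 CPM in UF (log2 ratio -2.76 ± 0.32, adjusted p = 5.97e-05), although all 3 of its regions are shared with Lims2, which was not called (-0.78 ± 0.35). Olig2 and Mag fell by 3.09 ± 0.26 and 2.75 ± 0.32. Cd163, a scavenger receptor of macrophages, had 4.33, 2.37, 5.87 and 2.94 CPM in IP and 26.6, 22.4, 24.1 and 28.7 CPM in UF (log2 ratio -2.71 ± 0.27, adjusted p = 2.77e-05). In all of these the highest IP library was well below the lowest UF library.

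The other lower genes have no single cell type in common by name. Fbxw23, an F-box gene, had 2.55, 0.498, 2.00 and 2.29 CPM in IP and 17.4, 11.3, 14.2 and 21.6 CPM in UF (log2 ratio -3.19 ± 0.39, adjusted p = 8.27e-05). Nlrp10, of the inflammasome receptor family, had 2.55, 1.12, 1.12 and 2.12 CPM in IP and 16.1, 13.97, 13.04 and 15.4 CPM in UF (log2 ratio -3.15 ± 0.32, adjusted p = 2.71e-05). Each rests on 1 tested region. Ppp1r3a, which targets a phosphatase to glycogen in muscle, was at -3.04 ± 0.39 with 2 of 2 regions lower. Scnn1b, a subunit of the epithelial sodium channel, was at -2.66 ± 0.29, the drug exporter gene Slc47a2 at -2.75 ± 0.30, and the odorant receptor gene Olfr453 at -2.82 ± 0.38. Tmem125, Dapl1, Tmem174 and Tbc1d21 were at -3.03 ± 0.32, -2.92 ± 0.38, -2.78 ± 0.42 and -2.65 ± 0.32, and in each every tested region was lower.

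**Figure D2:**
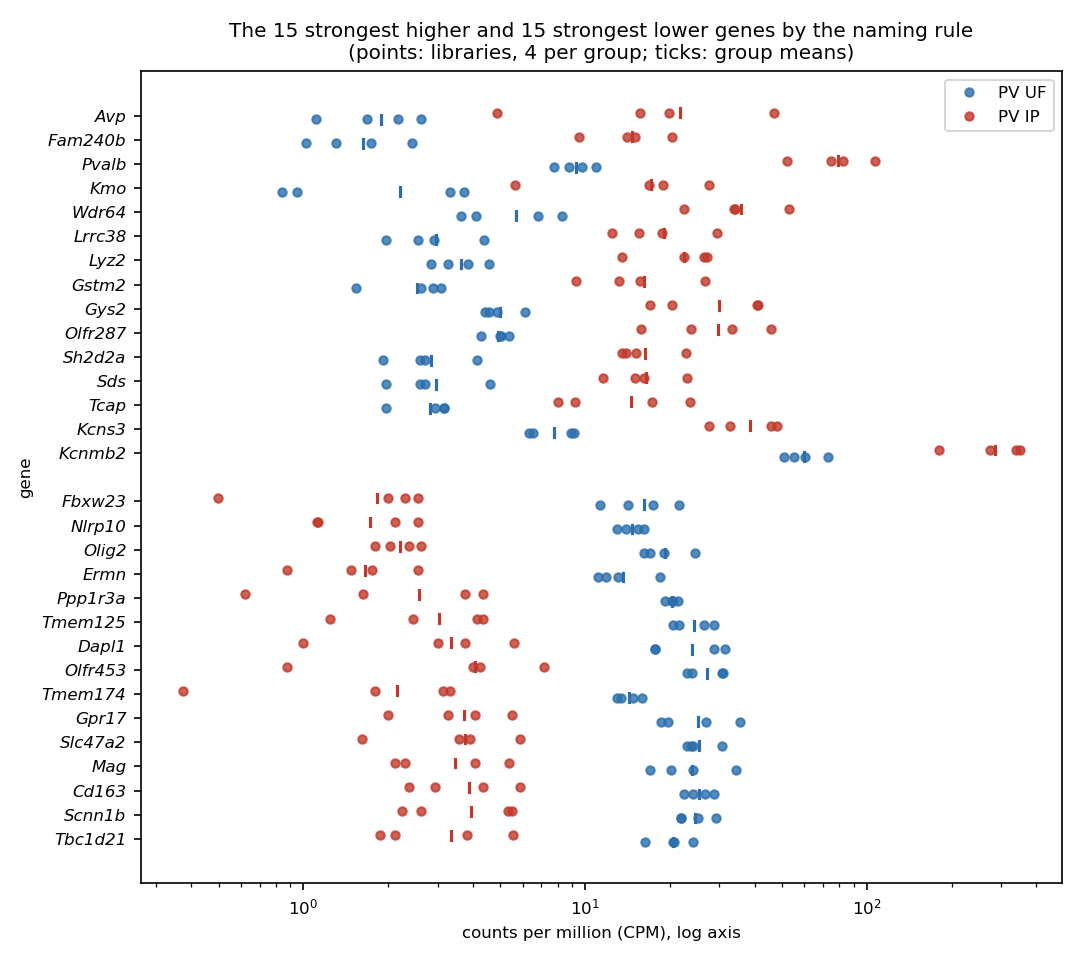
CPM (log axis) of the 15 strongest higher and the 15 strongest lower genes in each of the 4 PV IP (red) and 4 PV UF (blue) libraries, with ticks at the group means. The groups do not overlap in any of the 30 genes, which the naming rule required, and Avp and Kmo have the widest spread among IP libraries of the higher genes.

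Genes with many regions showed whether a difference ran along a whole locus. Of 3248 genes with at least 10 tested regions, the one with the highest share of higher regions was Sgpp2, which encodes a sphingosine-1-phosphate phosphatase (chr1:78309549-78420289), with 11 of 12. Summed over the gene it had 122.97, 97.9, 102 and 129 CPM in IP and 30.5, 33.7, 32.04 and 30.5 CPM in UF (log2 ratio 1.83 ± 0.13, adjusted p = 2.07e-06). Kcnmb2 had 37 higher and 1 lower of 41 regions. Its region at chr3:32071929-32072128 had 12.05, 12.5, 8.94 and 27.6 CPM in IP and 1.202, 0.538, 0.571 and 0.444 CPM in UF (log2 ratio 4.55 ± 0.43, adjusted p = 5.99e-06), while the lower region at chr3:32012227-32012426 had 1.97, 1.77, 1.26 and 0.737 CPM in IP and 4.64, 5.04, 5.06 and 3.78 CPM in UF (log2 ratio -1.69 ± 0.37, adjusted p = 0.00121). A single gene body thus held regions called in opposite directions. Regions shown within loci, here and below, had the smallest p in their direction among called regions without overlap between groups. Their separation was therefore required by the choice.

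Growth factor and matrix genes also had differences along the locus. Fgf18, a fibroblast growth factor (chr11:33116970-33147400), had 9 of 10 regions higher and 135, 121, 121 and 135 CPM in IP and 45.8, 49.95, 52.6 and 45.8 CPM in UF (log2 ratio 1.39 ± 0.11, adjusted p = 5.14e-06). Acan, the core proteoglycan of perineuronal nets (chr7:79053226-79115099), had 8 of 10 regions higher, among them one at chr7:79060425-79060624 with 16.98, 11.7, 14.9 and 5.60 CPM in IP and 0.858, 0.806, 0.571 and 0.444 CPM in UF (log2 ratio 4.18 ± 0.40, adjusted p = 6.46e-06). Ntn4, which encodes a netrin, had 14 of 18 higher (119, 98.5, 63.7 and 75.5 CPM in IP and 32.05, 24.2, 28.4 and 27.02 CPM in UF; log2 ratio 1.68 ± 0.18, adjusted p = 3.86e-05). The remaining loci were Vwc2 with 14 of 18 regions higher, Sgms2, a sphingomyelin synthase, with 12 of 15, Sparcl1, a matrix glycoprotein, with 10 of 12, Akain1 with 9 of 10 and Rhobtb1 with 8 of 10. Their gene-level log2 fold changes ran from 0.92 for Sparcl1 to 1.68 for Akain1, and none of the 9 besides Kcnmb2 held a lower region.

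In the lower direction the most uniform locus was Lhcgr, the luteinizing hormone receptor gene (chr17:88716384-88792059), with 10 of 10 regions lower. It had 21.9, 12.95, 22.2 and 16.2 CPM in IP and 67.1, 67.7, 66.9 and 69.9 CPM in UF (log2 ratio -1.90 ± 0.17, adjusted p = 1.33e-05). Tyro3, a receptor kinase of the TAM family (chr2:119797740-119818104), had 9 of 10 lower and 32.6, 21.2, 50.96 and 27.8 CPM in IP and 139.5, 120.0, 119.8 and 122 CPM in UF (log2 ratio -1.91 ± 0.20, adjusted p = 3.72e-05). UF varied far less in Lhcgr than the distance between the groups, and in Tyro3 the highest IP library, replicate 4, was still below every UF library. Jcad, a cell junction protein gene (chr18:4590792-4682869), had 15 of 18 lower and 42.5, 39.1, 49.5 and 45.1 CPM in IP and 145, 141, 128 and 132 CPM in UF (log2 ratio -1.63 ± 0.11, adjusted p = 2.07e-06). Rasal1, a Ras GTPase-activating protein, had 8 of 10 lower at -1.68 ± 0.13, Itgb8, an integrin subunit, 8 of 10 at -1.49 ± 0.15, and Fbln2, a matrix fibulin, 8 of 10 at -1.69 ± 0.17. Of genes known for synapses and spiny neurons, Baiap2, a postsynaptic scaffold, had 13 of 15 lower at -1.08 ± 0.11 and Rgs9, the striatal regulator of G protein signalling, 11 of 13 at -1.19 ± 0.11. Stum had 11 of 13 at -0.89 ± 0.13 and Nfam1, an immune receptor, 9 of 11 at -1.30 ± 0.16. None of these 10 loci held a higher region. At gene ends alone 1155 of 14501 genes were higher (7.96%) and 1071 lower (7.39%), and Fbln2 was not among them (-0.87, adjusted p = 0.119).

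Other long genes held strong differences in opposite directions that cancelled in the sum. At least 5 regions were called each way in 722 genes, of which 144 were called as genes. Rbfox1, a neuronal splicing factor gene (chr16:5884793-7412480), had 62 regions higher and 47 lower of 231, and summed to 1149, 991, 748 and 1019 CPM in IP and 931, 895, 845 and 801 CPM in UF (log2 ratio 0.17 ± 0.13, adjusted p = 0.393). Its region at chr16:6086221-6086420 had 17.8, 12.5, 9.97 and 29.05 CPM in IP and 2.40, 1.61, 2.29 and 3.22 CPM in UF (log2 ratio 2.87 ± 0.35, adjusted p = 1.85e-05), and that at chr16:7193653-7193852 had 3.55, 1.98, 1.95 and 4.13 CPM in IP and 14.8, 20.2, 15.5 and 13.0003 CPM in UF (log2 ratio -2.49 ± 0.30, adjusted p = 1.82e-05). The gene sums overlapped. Each of these regions separated the groups, which the choice of regions required.

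Dlg2, a postsynaptic scaffold gene (chr7:90476188-92449246), had 53 higher and 39 lower of 199 regions. In it the region at chr7:92140266-92140465 had 21.5, 22.9, 12.03 and 27.4 CPM in IP and 2.75, 2.76, 4.24 and 4.56 CPM in UF (log2 ratio 2.54 ± 0.29, adjusted p = 1.36e-05) and that at chr7:90539486-90539685 had 0.790, 0.416, 0.917 and 0.147 CPM in IP and 5.67, 7.12, 8.98 and 6.78 CPM in UF (log2 ratio -3.64 ± 0.43, adjusted p = 1.51e-05). Auts2 (chr5:131437333-132543220) was evenly split, with 38 higher and 38 lower of 148. Its region at chr5:131767191-131767390 had 4.54, 1.04, 4.01 and 3.24 CPM in IP and 24.6, 22.9, 21.1 and 24.2 CPM in UF (log2 ratio -2.89 ± 0.32, adjusted p = 1.19e-05). Nrxn3, a presynaptic neurexin, had 63 higher and 37 lower of 179 regions, and Dab1, the reelin adaptor, 45 and 37 of 149. At the gene level Dlg2 (0.13 ± 0.14, adjusted p = 0.533), Auts2 (-0.07 ± 0.13, adjusted p = 0.749), Nrxn3 (0.21 ± 0.14, adjusted p = 0.288) and Dab1 (0.07 ± 0.14, adjusted p = 0.762) did not pass the test, though Dab1 did at its gene ends alone (0.68, adjusted p = 0.0367).

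**Figure D3:**
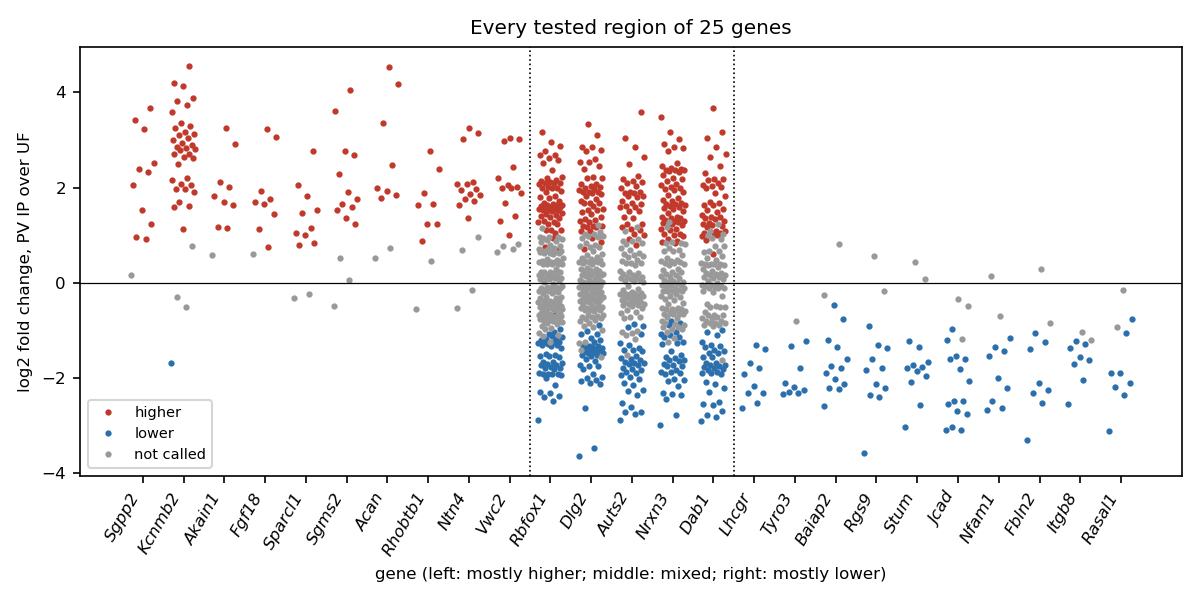
Log2 fold change of PV IP over UF for every tested region of 25 genes, each point being a region, coloured by call. The 10 genes on the left have the highest shares of higher regions (Sgpp2, 11 of 12), the 10 on the right the highest shares of lower regions (Lhcgr, 10 of 10), and the 5 in the middle hold many of both (Rbfox1, 62 higher and 47 lower of 231).

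Genes with more regions were called more often. Of the genes tested 45.3% had 3 or fewer regions, and 20.5% of these were called, against 25.3% of genes with 4 to 9 regions and 34.5% of those with 10 or more. Of 119985 tested regions in genes 6.02% lay in more than 1 gene. Family counts below rest on these gene sums and are read against 11.8% higher and 13.2% lower over all genes. Counts with the block are read against 18.3% higher and 20.7% lower.

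Of 39 tested voltage-gated potassium channel genes 7 were higher and 12 lower (median log2 fold change -0.12). Kcng4, a modulatory subunit of Kv2 channels, had 31.3, 37.7, 23.4 and 48.5 CPM in IP and 12.9, 9.71, 7.73 and 6.91 CPM in UF (log2 ratio 1.94 ± 0.25, adjusted p = 0.000123), and Kcns1, another such subunit, had 20.4, 29.3, 15.4 and 53.9 CPM in IP and 14.6, 13.6, 11.3 and 10.4 CPM in UF (log2 ratio 1.26 ± 0.32, adjusted p = 0.00939). Both were higher without overlap, as was Kcnc2, a Kv3 subunit of fast repolarisation (64.05 to 93.4 CPM in IP and 28.04 to 39.2 CPM in UF; 1.24 ± 0.16, adjusted p = 0.00011). Its paralogue Kcnc1 had 78.2, 111, 84.2 and 85.6 CPM in IP and 84.4, 103, 95.9 and 85.02 CPM in UF (log2 ratio -0.03 ± 0.13, adjusted p = 0.874), with groups that overlapped. Kcna2, an axonal Kv1 subunit, was at 0.53 ± 0.11. On the lower side stood Kcng3 (13.1 to 22.4 CPM in IP and 39.7 to 60.6 CPM in UF; -1.38 ± 0.19, adjusted p = 0.000189), Kcnh8 (-1.36 ± 0.28) and Kcnf1 (-1.25 ± 0.20). From gene ends alone Kcna2 (0.14, adjusted p = 0.682), Kcng3 (-0.52, adjusted p = 0.161) and Kcnf1 (-0.72, adjusted p = 0.0758) did not pass, and Kcnh8 did not pass from its body alone (-0.58, adjusted p = 0.305).

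Auxiliary subunits of potassium channels were higher in 7 of 16 genes and lower in 2 (median 0.50; 1 lower without IP replicate 4, IP replicate 5 or any 1 UF replicate). Beside Kcnmb2, Kcnmb4, the neuronal beta4 subunit of BK channels, had 80.5, 70.1, 63.2 and 72.1 CPM in IP and 50.4, 41.9, 46.5 and 33.8 CPM in UF (log2 ratio 0.73 ± 0.14, adjusted p = 0.00182). Kcnip1 and Kcnip3, calcium-binding partners of Kv4 channels, went in opposite directions. Kcnip1 had 631, 486, 354 and 547 CPM in IP and 302, 241, 240.1 and 268 CPM in UF (log2 ratio 0.94 ± 0.16, adjusted p = 0.000687), and Kcnip3 had 82.2, 69.5, 94.2 and 71.2 CPM in IP and 204, 196, 170.4 and 158 CPM in UF (log2 ratio -1.20 ± 0.13, adjusted p = 3.77e-05). The groups did not overlap in either, and at gene ends alone Kcnip1 did not pass (0.61, adjusted p = 0.241). Kcnmb1 was at 2.67 ± 0.48, but its single region is shared with Kcnip1. Kcne4 was called (2.80 ± 0.65, adjusted p = 0.00586) although the groups overlapped, at 7.64, 6.48, 3.25 and 0.654 CPM in IP and 1.31, 0.473, 0.373 and 0.640 CPM in UF.

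Inward rectifier and two-pore channels, which hold the resting membrane, were higher in 10 of 27 genes and lower in 7 (median 0.37; 6 higher without UF replicate 4 and 5 without UF replicate 5). Kcnj9 and Kcnj3, subunits of the G protein-gated GIRK channels, had 171, 142, 120.2 and 214 CPM in IP and 99.8, 83.3, 77.4 and 84.4 CPM in UF (0.91 ± 0.16, adjusted p = 0.00091) and 93.2, 77.97, 61.1 and 60.8 CPM in IP and 47.5, 42.9, 53.1 and 29.1 CPM in UF (0.76 ± 0.19, adjusted p = 0.00822). Both separated the groups, with 2 of the 8 regions of Kcnj9 shared with Igsf8. Kcnj10, the glial Kir4.1 channel, was lower at 56.01, 57.9, 88.9 and 39.05 CPM in IP and 107, 99.4, 108 and 133 CPM in UF (log2 ratio -0.88 ± 0.19, adjusted p = 0.00432). The lowest was Kcnj1, known from kidney (-2.43 ± 0.26). The highest was Kcnj8 (1.30 ± 0.35), known from pericytes and itself among the mural markers, with 6.62, 11.96, 10.6 and 5.39 CPM in IP and 1.96, 5.05, 3.17 and 3.59 CPM in UF, beside summed mural levels of 341, 291, 500.2 and 467 CPM in IP and 311, 283, 273 and 871 CPM in UF. The part of mural nuclei in this difference was not tested.

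Of 14 sodium channel genes 3 were higher and 5 lower (median -0.12; 5 and 7 with the block). Scn1a, the Nav1.1 channel of fast-spiking cells, had 120.2, 122.9, 88.3 and 119.8 CPM in IP and 63.7, 63.7, 72.6 and 62.7 CPM in UF (log2 ratio 0.78 ± 0.12, adjusted p = 0.000522). Scn4a, a channel best known from muscle, had 45.1, 51.3, 29.5 and 55.9 CPM in IP and 17.9, 15.6, 13.04 and 15.5 CPM in UF (log2 ratio 1.56 ± 0.20, adjusted p = 0.000113). In both, every IP library was above every UF library. Scn3b, a beta subunit, was lower at 9.67, 17.1, 14.7 and 16.5 CPM in IP and 41.4, 42.7, 43.7 and 35.3 CPM in UF (log2 ratio -1.47 ± 0.18, adjusted p = 8.87e-05), and Scn11a, known from sensory neurons, was at -1.79 ± 0.22. Scn8a (Nav1.6) had 0.36 ± 0.12, a call that did not pass without IP replicate 1 or UF replicates 2, 4 or 5 (adjusted p = 0.0217 to 0.127 over the 8 omissions) or at gene ends alone (0.32, adjusted p = 0.34).

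Of 25 calcium channel genes 3 were higher and 8 lower (median -0.18; 5 higher without IP replicate 4). Cacna1a, the P/Q-type channel of fast release, had 546, 483, 492 and 525 CPM in IP and 344, 299.9, 339 and 344 CPM in UF (log2 ratio 0.62 ± 0.11, adjusted p = 0.000726), with 23 of 54 regions higher and 2 lower. Its auxiliary subunit gene Cacna2d2 had 319, 337, 261 and 373 CPM in IP and 198, 189, 203 and 175 CPM in UF (log2 ratio 0.75 ± 0.12, adjusted p = 0.000532). Cacna1e, the R-type channel, went the other way at 293, 199, 202 and 216 CPM in IP and 479.6, 459, 417 and 380.4 CPM in UF (log2 ratio -0.93 ± 0.14, adjusted p = 0.000295), although 12 of its 82 regions were higher beside 44 lower. Cacna2d1 was at -1.14 ± 0.17 and Cacng1, a subunit known from muscle, at -2.09 ± 0.20. From gene ends alone Cacna1a (0.04, adjusted p = 0.968), Cacna2d2 (0.77, adjusted p = 0.0601) and Cacna2d1 (-0.83, adjusted p = 0.059) did not pass the test.

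Receptors for neuromodulators were called in 19 of 33 genes, 9 higher and 10 lower (median 0.08; 6 lower without UF replicate 2 or without UF replicate 4). Chrm2, the M2 muscarinic receptor, had 138, 105, 56.3 and 125 CPM in IP and 47.1, 40.4, 33.3 and 34.4 CPM in UF (log2 ratio 1.45 ± 0.22, adjusted p = 0.000371). IP replicate 4 was the lowest of its group and still above UF. The alpha1 adrenergic receptor genes Adra1b (54.5 to 93.2 CPM in IP and 38.8 to 44.9 CPM in UF; 0.79 ± 0.15, adjusted p = 0.00197) and Adra1d (27.98 to 45.7 CPM in IP and 14.7 to 24.1 CPM in UF; 0.99 ± 0.20, adjusted p = 0.00293) were higher too. Among dopamine receptors Drd3 was lower at 25.5, 19.6, 29.5 and 20.9 CPM in IP and 63.9, 58.3, 61.1 and 55.3 CPM in UF (log2 ratio -1.32 ± 0.15, adjusted p = 5.97e-05) and Drd2 at -1.50 ± 0.17, a call that gene ends alone did not give (-0.39, adjusted p = 0.327). Drd1 had 21.9, 23.3, 14.4 and 6.54 CPM in IP and 12.6, 27.9, 25.7 and 16.8 CPM in UF (log2 ratio -0.35 ± 0.34, adjusted p = 0.487), with overlapping groups. The lowest member was Htr3b, a serotonin-gated channel subunit (-1.59 ± 0.31). Chrm1 was called lower (-0.86 ± 0.26) but not without IP replicate 1 or UF replicates 2 or 4 (adjusted p = 0.0129 to 0.0697).

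Of 39 neuropeptide receptor genes 7 were higher and 6 lower (median 0.18; 11 and 8 with the block, 4 and 3 without UF replicate 4, 3 higher without UF replicate 5). Oprd1, the delta opioid receptor, had 80.7, 83.1, 65.3 and 65.4 CPM in IP and 31.4, 27.2, 29.8 and 26.8 CPM in UF (log2 ratio 1.36 ± 0.13, adjusted p = 2.54e-05), with 7 of 11 regions higher. Cckar, a cholecystokinin receptor, had 11.5, 11.3, 5.75 and 20.1 CPM in IP and 3.49, 2.13, 3.73 and 4.99 CPM in UF (log2 ratio 1.77 ± 0.38, adjusted p = 0.00381). Npy1r, a neuropeptide Y receptor, was lower at 6.11, 9.47, 10.6 and 7.68 CPM in IP and 17.2, 18.5, 21.9 and 17.7 CPM in UF (log2 ratio -1.13 ± 0.22, adjusted p = 0.00202), as was the somatostatin receptor Sstr5 (-1.59 ± 0.32). No IP library overlapped UF in any of the 4.

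Of 18 ionotropic glutamate receptor genes 4 were higher and 2 lower (median 0.07; 5 and 5 with the block; 0 lower without UF replicate 1, 1 without IP replicate 5 or UF replicate 2 and 4 without IP replicate 1). Grik1, a kainate receptor subunit of interneurons, had 236, 161, 106 and 132 CPM in IP and 79.6, 68.9, 75.9 and 73.9 CPM in UF (log2 ratio 1.08 ± 0.19, adjusted p = 0.000973), and 15 of its 27 regions were higher. Grin2c was at 1.82 ± 0.45, but its single region is shared with Fdxr. Of 15 nicotinic receptor genes 2 were higher and 3 lower (5 and 3 with the block; 1 higher without UF replicate 4 or 5), with Chrnb2, the main neuronal beta subunit, at 23.4, 32.1, 19.9 and 32.5 CPM in IP and 17.4, 15.8, 12.5 and 13.96 CPM in UF (log2 ratio 0.86 ± 0.21, adjusted p = 0.00689) and Chrna6, known from dopamine terminals, at -1.62 ± 0.44. At gene ends alone Chrnb2 did not pass (0.63, adjusted p = 0.0834). Of 18 GABA-A subunit genes 1 was higher and 3 were lower.

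In the release machinery, 3 of 16 synaptotagmins were higher and 6 lower, and of 51 complexins, synapsins, SNAREs, Munc and related proteins 7 were higher and 11 lower (11 and 14 with the block; 4 higher without UF replicate 5; 7 lower without UF replicate 1 or 2). Rims1, an active zone scaffold, had 303, 204, 201 and 234 CPM in IP and 168, 139, 155 and 152 CPM in UF (log2 ratio 0.62 ± 0.13, adjusted p = 0.00416). Cplx2, a complexin, had 103, 104, 99.1 and 132 CPM in IP and 174, 196, 168 and 133 CPM in UF (log2 ratio -0.61 ± 0.13, adjusted p = 0.0042), so that IP replicate 5 lay just below UF replicate 5. Neither passed at gene ends alone (Rims1 0.09, adjusted p = 0.76; Cplx2 -0.47, adjusted p = 0.372). The lowest of the family was Unc13d (-2.44 ± 0.30), whose single region is shared with Wbp2.

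Calcium-binding EF-hand genes included Pvalb and many lower members. Of 37 tested 6 were higher, led by Pvalb, and 14 were lower (median -0.22). Calb1, calbindin of spiny projection neurons, had 24.7, 16.7, 15.9 and 13.9 CPM in IP and 32.7, 34.9, 32.9 and 34.1 CPM in UF (log2 ratio -0.94 ± 0.18, adjusted p = 0.00208). Hpca, hippocalcin, had 29.5, 21.2, 23.2 and 24.5 CPM in IP and 54.5, 60.4, 57.8 and 52.6 CPM in UF (log2 ratio -1.21 ± 0.14, adjusted p = 6.24e-05). Ocm, oncomodulin, a close relative of parvalbumin, was lower as well, at 6.87, 5.48, 4.87 and 5.72 CPM in IP and 17.9, 18.9, 12.4 and 12.2 CPM in UF (log2 ratio -1.43 ± 0.25, adjusted p = 0.00099). In these 3 genes every IP library was below every UF library, opposite to Pvalb.

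Nuclear receptors were higher in 10 of 42 genes and lower in 5 (median 0.03; 3 lower without IP replicate 2, IP replicate 5 or UF replicate 4). The oestrogen-related receptor genes Esrrb and Esrrg, whose products drive mitochondrial genes, were both among the higher. Esrrb had 13 of 17 regions higher and 161, 146, 109 and 120.4 CPM in IP and 41.2, 45.4, 36.3 and 37.5 CPM in UF over the gene (log2 ratio 1.74 ± 0.14, adjusted p = 6.50e-06), and Esrrg had 31 of 51 and 355, 296, 227 and 351 CPM in IP and 150.0, 125, 138 and 149.8 CPM in UF (log2 ratio 1.13 ± 0.14, adjusted p = 9.43e-05). Pparg, a regulator of lipid metabolism, had 7 of 7 regions higher and 36.2, 59.9, 47.2 and 51.5 CPM in IP and 13.5, 14.5, 14.7 and 11.5 CPM in UF (log2 ratio 1.84 ± 0.18, adjusted p = 2.27e-05). These 3 separated the groups. Nr1i3 was at 2.51 ± 0.41 from 1 region. On the lower side Thra, a thyroid hormone receptor, had 83.5, 86.6, 98.1 and 83.98 CPM in IP and 165, 163, 163 and 153 CPM in UF (log2 ratio -0.87 ± 0.10, adjusted p = 6.19e-05), the retinoic acid receptor gene Rarb was at -0.50 ± 0.14 and Nr5a1 at -2.04 ± 0.43. Esrrb did not pass at gene ends alone (1.17, adjusted p = 0.11).

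Forkhead genes were lower in 11 of 29 and higher in 2 (median -0.23; 5 higher without IP replicate 1 or 5, 7 lower without IP replicate 5). Foxp1, a factor of spiny projection neurons, had 43 of 83 regions lower and 195, 165, 229 and 196 CPM in IP and 389.8, 393, 363 and 389 CPM in UF (log2 ratio -0.97 ± 0.12, adjusted p = 7.07e-05). Foxp2 had 47.9, 25.2, 34.8 and 42.97 CPM in IP and 86.1, 66.6, 81.7 and 86.2 CPM in UF (log2 ratio -1.10 ± 0.18, adjusted p = 0.00051). Both fell without overlap. The higher pair was Foxf2 (4.84, 8.84, 14.6 and 6.54 CPM in IP and 3.27, 3.31, 2.79 and 1.79 CPM in UF; 1.66 ± 0.37, adjusted p = 0.00476) and Foxq1 (7.89, 9.09, 24.5 and 10.5 CPM in IP and 4.36, 4.34, 6.05 and 3.97 CPM in UF; 1.48 ± 0.36, adjusted p = 0.00742), known from vessels. IP replicate 4 was the highest in both, as in the endothelial sum (373, 420.1, 700.0 and 352 summed CPM in IP), and the part of endothelial nuclei was not tested.

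Among Mef2, Maf, Egr, Klf and Nr4a genes 3 of 32 were higher and 7 lower (median -0.03). Maf, which acts in interneurons of the medial ganglionic eminence, had 40.7, 46.7, 42.97 and 31.9 CPM in IP and 17.2, 22.7, 23.9 and 17.8 CPM in UF (0.98 ± 0.17, adjusted p = 0.000982). It was higher without overlap, though it did not pass from its body without flanks (0.72, adjusted p = 0.139). The activity-dependent genes Egr3 (24.9, 25.4, 25.2 and 27.1 CPM in IP and 45.3, 57.5, 62.3 and 46.5 CPM in UF; -1.05 ± 0.15, adjusted p = 0.000183) and Egr4 (13.6 to 21.4 CPM in IP and 35.1 to 39.96 CPM in UF; -1.10 ± 0.17, adjusted p = 0.000358) were lower. Nr4a1 was lower over the gene (-0.64 ± 0.15, adjusted p = 0.00587) but was at 0.31, adjusted p = 0.347 from gene ends alone.

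Fibroblast growth factors and receptors were higher in 7 of 22 genes and lower in 2 (8 and 4 with the block; 1 lower without IP replicate 5 or UF replicates 1, 4 or 5). Beside Fgf18, Fgf9 had 11 of 15 regions higher and 168, 160.0, 144 and 165 CPM in IP and 71.1, 84.5, 95.8 and 71.4 CPM in UF (log2 ratio 0.98 ± 0.12, adjusted p = 8.27e-05), and Fgf5 had 13.5, 23.4, 12.1 and 17.2 CPM in IP and 2.62, 6.87, 4.47 and 3.07 CPM in UF (log2 ratio 1.91 ± 0.32, adjusted p = 0.000745). No library of IP fell within the UF range in either. Fgf16 was the lowest (-1.72 ± 0.39, from 1 region). Of 24 proteoglycan and link protein genes 5 were higher and 5 lower (median -0.16; 3 lower without UF replicate 1). Hapln1, the link protein of perineuronal nets, had 95.2, 67.6, 61.5 and 69.4 CPM in IP and 30.1, 27.5, 28.4 and 31.2 CPM in UF (log2 ratio 1.32 ± 0.15, adjusted p = 4.98e-05), which gene ends alone did not give (0.55, adjusted p = 0.386). Hspg2, perlecan of basement membranes, was at 1.37 ± 0.17 and Gpc4, a glypican of astrocytes, at -1.06 ± 0.24 (gene ends alone -0.45, adjusted p = 0.279). Ncan, neurocan, had 60.3 to 75.9 CPM in IP and 68.2 to 85.5 CPM in UF and was not called (-0.19 ± 0.12, adjusted p = 0.262) and was at 0.25, adjusted p = 0.385 from gene ends alone.

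Structural and metabolic families held single strong members. The neurofilament and tubulin family was called in 28.6% of genes and the respiratory chain in 12.5%, against 25.0% over all genes. Of 28 neurofilament, internexin and tubulin genes 5 were higher and 3 lower (median 0.05). Nefm, the medium neurofilament, had 60.3, 86.8, 62.1 and 60.6 CPM in IP and 37.9, 47.6, 51.3 and 41.7 CPM in UF (log2 ratio 0.59 ± 0.15, adjusted p = 0.00992), and Tuba8, an alpha tubulin, had 85.3, 82.6, 68.6 and 40.8 CPM in IP and 23.8, 24.8, 22.1 and 17.5 CPM in UF with 7 of 7 regions higher (log2 ratio 1.65 ± 0.21, adjusted p = 0.0001). Nefh was at 0.72 ± 0.15, with 5 of its 6 regions shared with Ap1b1, and did not pass from its body alone (0.41, adjusted p = 0.0772). Of 88 respiratory chain genes 5 were higher and 6 lower (10 and 9 with the block; 3 higher without UF replicate 4; 2 lower without UF replicates 1 or 4 and 1 lower without IP replicates 1 or 5 or UF replicates 2 or 5). Cox7b2 had 40.5, 32.4, 15.5 and 50.6 CPM in IP and 13.1, 14.2, 10.99 and 13.1 CPM in UF (log2 ratio 1.43 ± 0.28, adjusted p = 0.0022), and Cox6a2, the muscle-type subunit expressed in PV cells, had 22.1, 31.6, 15.6 and 19.6 CPM in IP and 13.5, 9.47, 8.38 and 9.99 CPM in UF (log2 ratio 1.13 ± 0.25, adjusted p = 0.00421), with 3 of its 4 regions shared with Itgad. The lowest of the called members, Atp5pb, was at -0.55 ± 0.12 from 1 region shared with Wdr77.

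Myelin and paranode genes moved most evenly, with 14 of 18 lower and none higher (median -1.38). Tubb4a, a tubulin abundant in oligodendrocytes, was lower beside them at 12.2, 18.3, 13.4 and 15.2 CPM in IP and 29.9, 29.4, 32.97 and 47.6 CPM in UF (log2 ratio -1.23 ± 0.20, adjusted p = 0.000599), with 2 of its 4 regions shared with Dennd1c. UF replicate 5, the highest for Tubb4a, also had the highest oligodendrocyte sum (761, 673, 677 and 879 summed CPM in UF, and 344 to 452 in IP).

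Clustered protocadherins, adhesion genes that share a constant region on chromosome 18, were called in 34 of 37, 14 higher and 20 lower. Members of one cluster are not independent here, since all 18 regions counted for Pcdhac2 are shared with the other alpha genes and all 12 for Pcdhgc5 with the gamma genes. Pcdhac2 of the alpha cluster had 120.2, 147, 91.6 and 145 CPM in IP and 72.4, 83.3, 79.8 and 67.9 CPM in UF (log2 ratio 0.73 ± 0.15, adjusted p = 0.00231), and Pcdhgc5 of the gamma cluster had 73.6, 89.5, 87.3 and 68.1 CPM in IP and 124, 137, 128 and 124 CPM in UF (log2 ratio -0.69 ± 0.11, adjusted p = 0.000681). The alpha member shown was thus higher and the gamma member lower, each without overlap. The gamma genes Pcdhga12 and Pcdhgc3 were not called, at -0.33 each. At gene ends alone 0 were higher and 20 lower, and Pcdhac2 did not pass (0.28, adjusted p = 0.395), nor did Pcdhgc5 from its body without flanks (-0.35, adjusted p = 0.138). The lower count fell to 2 without UF replicate 2, 7 without IP replicate 5, 8 without UF replicate 4 and 12 without IP replicate 1.

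Of 53 tested Dlx, Nkx, Gsx and other homeobox genes 8 were higher and 12 lower (median -0.14). Nkx2-1, the factor that specifies the medial ganglionic eminence, had 7.38, 14.1, 9.62 and 8.66 CPM in IP and 4.796, 4.42, 6.24 and 3.84 CPM in UF (log2 ratio 1.05 ± 0.29, adjusted p = 0.0154), a call lost without IP replicate 2 (adjusted p = 0.0516) or UF replicate 5 (adjusted p = 0.0554). Dlx1 and Dlx2, factors of all forebrain GABA neurons, were at 0.88 ± 0.18 and 0.80 ± 0.19, and Dlx1 did not pass at gene ends alone (0.98, adjusted p = 0.0866). Nkx6-2, known from oligodendrocytes, was lower at 3.31, 1.12, 2.12 and 3.76 CPM in IP and 10.7, 7.89, 11.4 and 15.5 CPM in UF (log2 ratio -2.18 ± 0.37, adjusted p = 0.000741). In Nkx2-1 and Nkx6-2 the groups did not overlap.

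Adhesion, guidance and collagen families were called near or above the 25.0% over all genes. The share was 30.8% in contactins, 35.5% in semaphorins, plexins and neuropilins, and 22.7% in collagens. Of 13 contactin and contactin-associated genes 4 were higher and none lower (median 0.33; 7 higher without IP replicate 4 and 1 lower without IP replicate 1). Cntnap5a, with 58 tested regions, had 383, 227, 217 and 286 CPM in IP and 199, 162, 161 and 172 CPM in UF (log2 ratio 0.68 ± 0.16, adjusted p = 0.00701). Of 31 semaphorins, plexins and neuropilins 7 were higher and 4 lower (median 0.03). The plexin A genes Plxna1 (0.96 ± 0.13) and Plxna4 (0.82 ± 0.13), receptors of guidance cues, were higher, and Plxnb1 (-1.18 ± 0.25) was lower. From gene ends alone Plxna4 (0.23, adjusted p = 0.361) and Plxnb1 (-1.01, adjusted p = 0.259) did not pass. Of 44 collagen genes 4 were higher and 6 lower (median -0.17; 7 and 12 with the block), with Col19a1, a collagen of interneurons, at 209, 172, 136 and 177 CPM in IP and 76.95, 62.3, 64.5 and 73.1 CPM in UF (log2 ratio 1.33 ± 0.13, adjusted p = 2.81e-05) and Col6a1 at -2.53 ± 0.33.

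Transporters of transmitters and cyclases differed from member to member. Of 33 transporters for amino acid and monoamine transmitters 4 were higher and 5 lower (median -0.04; 7 and 11 with the block; 3 lower without UF replicate 2). Slc1a2, the main glial glutamate transporter, had 64.4, 52.2, 63.95 and 66.7 CPM in IP and 119, 96.1, 99.1 and 99.1 CPM in UF (log2 ratio -0.74 ± 0.12, adjusted p = 0.000544). It was lower without overlap. Slc6a12, the betaine transporter, was higher at 9.42, 9.96, 6.00 and 11.1 CPM in IP and 1.74, 4.34, 2.33 and 3.84 CPM in UF (log2 ratio 1.52 ± 0.34, adjusted p = 0.00469). Gene ends alone gave no call for Slc6a12 (0.63, adjusted p = 0.388) or Slc1a2 (0.00, adjusted p = 0.991). Of 18 cyclase genes 5 were higher and 2 lower (median 0.22), with Adcy8 (0.99 ± 0.13) and Adcy7 (1.08 ± 0.18) among the higher and Adcy5, the main adenylyl cyclase of spiny projection neurons, at -0.45 ± 0.11. Neither Adcy7 (0.25, adjusted p = 0.577) nor Adcy5 (0.22, adjusted p = 0.511) passed at gene ends alone, where Adcy5 had the opposite sign.

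Tight junction genes were higher more often than lower, 8 against 4 of 27 tested (median 0.00). Cldn5, the claudin of the blood-brain barrier, had 5.86, 13.7, 37.8 and 6.86 CPM in IP and 3.27, 4.81, 3.07 and 2.82 CPM in UF (log2 ratio 2.20 ± 0.50, adjusted p = 0.00526), and Ocln, occludin, had 13.5, 21.05, 35.2 and 11.4 CPM in IP and 5.45, 9.79, 9.97 and 7.17 CPM in UF (log2 ratio 1.31 ± 0.33, adjusted p = 0.0094). IP replicate 4, which had the highest endothelial sum, was the highest of all libraries for Cldn5, and Cldn5 did not pass from its body without flanks (1.25, adjusted p = 0.0591). Cldn11, a claudin of myelin, was lower at -1.30 ± 0.19, and Cldn8 at -2.89 ± 0.53 from 1 region. The part of endothelial nuclei in these differences was not tested.

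Some families are best known from other organs. Of 1106 listed odorant receptor genes 42 were tested, with 7 higher and 11 lower. Of 15 tested vomeronasal and taste receptor genes 0 were higher and 1 was lower (1 and 2 with the block). Of 37 keratin genes 9 were higher and 12 lower (5 higher without UF replicates 2, 4 or 5), and of 87 chemokine, interleukin and receptor genes 10 were higher and 22 lower (17 and 28 with the block; 6 higher without UF replicate 4 and 5 without UF replicate 5). Most called odorant receptor and keratin genes were counted from 1 or 2 regions. The interleukin-17 receptor gene Il17ra was lower at 16.5, 13.9, 19.5 and 7.52 CPM in IP and 53.8, 38.7, 34.5 and 39.2 CPM in UF from 7 regions (log2 ratio -1.52 ± 0.24, adjusted p = 0.000522).

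Some families were called less than the background of 25.0%. Of 76 histone genes 1 was higher and 0 were lower (1 and 1 with the block). The higher one was H4c14 (0.35 ± 0.11, adjusted p = 0.0301), and that call did not pass without IP replicate 5 or UF replicates 2, 4 or 5, or from its body without flanks (0.21, adjusted p = 0.366). Of 79 cytosolic ribosomal protein genes 0 were higher and 4 lower (3 and 18 with the block; 0 lower without IP replicate 5, 1 without UF replicate 5, 2 without IP replicate 1, UF replicate 1 or UF replicate 4 and 7 without IP replicate 2, with 1 higher without IP replicate 2 or UF replicate 5). Of 29 neurexins, neuroligins and related adhesion genes 1 was higher and 2 were lower (4 and 3 with the block; 0 higher without IP replicates 1 or 5 or UF replicates 2, 4 or 5, 2 without IP replicate 2 and 4 without IP replicate 4; 1 lower without any 1 UF replicate). Of these Nlgn3, a neuroligin, had 20.1, 24.4, 22.5 and 19.9 CPM in IP and 53.8, 50.1, 43.5 and 40.5 CPM in UF (log2 ratio -1.10 ± 0.15, adjusted p = 0.000162), with 2 of its 5 regions shared with Med12 and no call at gene ends alone (-0.35, adjusted p = 0.302). Of 18 histone deacetylase and sirtuin genes 2 were higher and none lower. Hdac9 had 31 of 73 regions higher and 467, 323, 266 and 425 CPM in IP and 235, 188, 219 and 219 CPM in UF (log2 ratio 0.78 ± 0.16, adjusted p = 0.00254), and Hdac7 had 115 to 139 CPM in IP and 76.4 to 93.1 CPM in UF (0.64 ± 0.11, adjusted p = 0.000774).

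**Figure D4:**
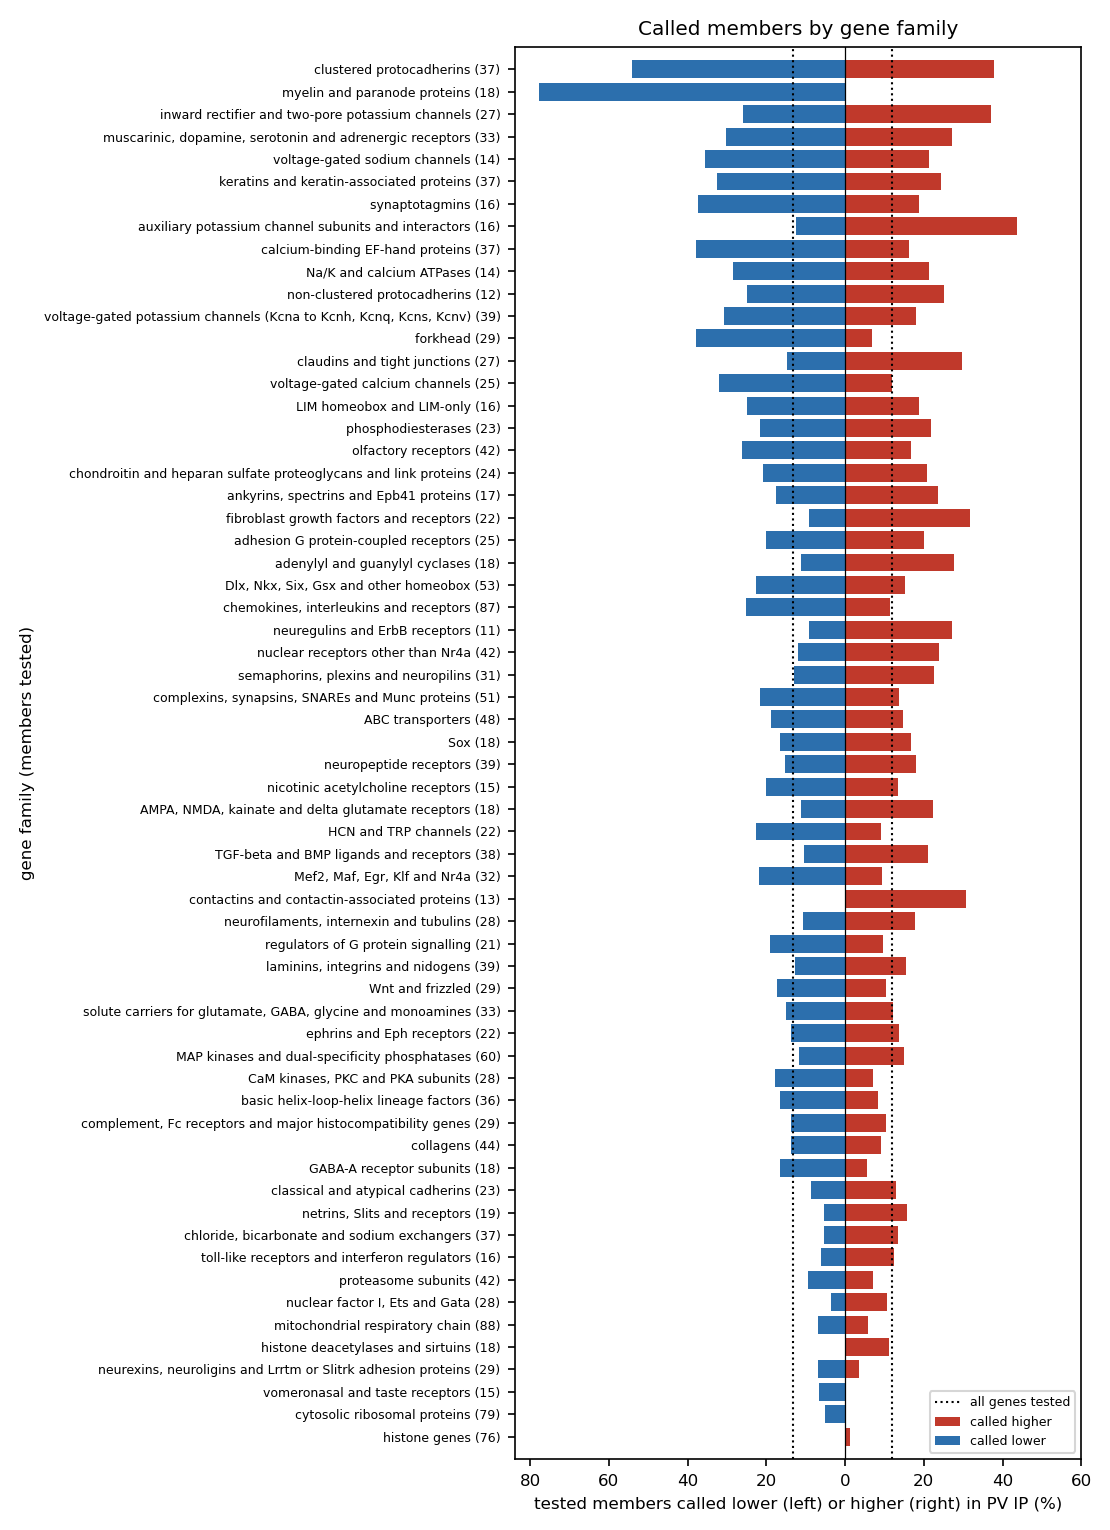
Percent of tested members called higher (red, right) or lower (blue, left) in PV IP for each gene family with at least 10 tested members, ordered by the share called, with the number tested in brackets. Dotted lines mark all genes tested (11.8% higher, 13.2% lower). Myelin genes reach the largest lower share (14 of 18), and histone genes the smallest share called (1 of 76).

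Outside genes, regions were named by the smallest p among those over 10 kb from any protein-coding gene and with an average log2 CPM of at least 3 and no overlap between groups. Of the called regions 726 higher and 826 lower ones met the criteria. Over all tested regions the groups did not overlap in 40.4%. The region at chr10:12019298-12019497, 363 kb from Utrn, had 37.1, 28.6, 23.3 and 34.9 CPM in IP and 3.95, 3.63, 3.67 and 3.67 CPM in UF (log2 ratio 3.05 ± 0.23, adjusted p = 2.76e-06). The region at chr2:113978378-113978577, 31.02 kb from Gjd2, the connexin gene of electrical synapses between interneurons, had 27.8, 19.4, 15.5 and 15.8 CPM in IP and 1.37, 0.874, 0.980 and 1.44 CPM in UF (log2 ratio 4.10 ± 0.31, adjusted p = 2.76e-06). The nearest gene is given for position only. A region 23.9 kb from Lgi2 (chr5:52509459-52509658) had 23.5, 19.4, 13.1 and 23.4 CPM in IP and 1.37, 0.739, 1.31 and 1.67 CPM in UF (log2 ratio 3.99 ± 0.32, adjusted p = 2.85e-06), and a region 101 kb from Nab1 (chr1:52354249-52354448) had 56.3, 35.6, 26.4 and 33.8 CPM in IP and 4.98, 3.16, 3.59 and 3.00 CPM in UF (log2 ratio 3.38 ± 0.26, adjusted p = 2.76e-06). The other 4, nearest to Mapk1ip1, Bbx, Fut8 and Sash1, had log2 fold changes of 2.99 to 3.63. In all 8 the UF libraries stayed at or below 4.98 CPM.

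The lower distal regions were as clear. The region at chr2:92675351-92675550, 60.1 kb from Chst1, had 3.55, 2.71, 5.16 and 6.19 CPM in IP and 33.7, 32.1, 27.2 and 31.6 CPM in UF (log2 ratio -2.82 ± 0.25, adjusted p = 5.34e-06). That at chr13:99612145-99612344, 95.5 kb from Map1b, had 3.16, 0.936, 2.06 and 2.51 CPM in IP and 23.2, 18.5, 19.8 and 23.001 CPM in UF (log2 ratio -3.33 ± 0.31, adjusted p = 5.58e-06). A region 32.3 kb from Dhrs2 (chr14:55189493-55189692) had 5.73, 2.18, 4.70 and 6.78 CPM in IP and 34.3, 35.1, 34.7 and 36.001 CPM in UF (log2 ratio -2.88 ± 0.27, adjusted p = 5.58e-06), with UF libraries almost at a single level. A region 256 kb from Pou3f1, the nearest gene (chr4:124400981-124401180), had 4.15, 2.29, 5.16 and 4.13 CPM in IP and 23.01, 22.8, 26.6 and 28.7 CPM in UF (log2 ratio -2.69 ± 0.26, adjusted p = 6.36e-06). The other 4, nearest to Kcnf1, 1810013L24Rik, Saraf and Nsmce2, ran from -3.19 to -2.78. In these 8 regions no UF library was below 14.3 CPM and no IP library above 6.78 CPM.

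Some windows outside genes held several called regions. Of all tested regions 47.8% outside genes and 58.6% over 100 kb away were called. Whether called regions lay closer together than these shares give was not tested. Of 13577 windows of 50 kb that overlap no protein-coding gene and hold tested regions, 107 held 5 or more higher regions and 226 held 5 or more lower ones. The window with most higher regions, chr6:126550001-126600000, lies between the potassium channel genes Kcna5 and Kcna1, with 10 higher and 2 lower of 17. Its regions gave 225, 212, 181 and 247 summed CPM in IP and 151, 135, 116 and 121 in UF. Kcna1 itself, 36.5 kb away, had 79.9, 98.3, 72.3 and 70.1 CPM in IP and 50.1, 65.1, 70.3 and 51.1 CPM in UF (log2 ratio 0.43 ± 0.15, adjusted p = 0.0436), a call lost without IP replicate 2 or UF replicates 1, 2 or 5 and with library totals in place of TMM scaling (adjusted p = 0.0636). The next were a window between Dpt and Xcl1 with 9 of 11 higher, one between Pcdh8 and Olfm4 (chr14:79850001-79900000) with 8 of 11 and 73.7, 47.5, 48.2 and 42.5 summed CPM in IP and 18.7, 16.5, 20.4 and 18.9 in UF, and one between Iqsec3 and A2m with 8 of 12. A window between Pomgnt2 and Snrk held 8 higher and 3 lower of 14.

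The windows with most lower regions were listed in the same way. A window between Ppp2r2a and Ebf2 (chr14:67100001-67150000) held 13 lower and no higher region of 21, and its regions gave 58.8, 57.6, 60.7 and 56.2 summed CPM in IP and 108, 128, 132 and 134 in UF. In the gene desert between Msx2 and Drd1 (chr13:53800001-53850000), 201 kb from Drd1, 10 of 11 regions were lower, at 15.01, 12.8, 10.9 and 12.1 summed CPM in IP and 62.8, 57.5, 56.2 and 56.8 in UF. Drd1 encodes the dopamine D1 receptor of direct-pathway spiny neurons, and its own gene sum did not pass the test, as given above. A window between Erg and Ets2 (chr16:95650001-95700000) held 8 lower of 9 at 8.69, 4.89, 11 and 8.70 summed CPM in IP and 38.6, 44.6, 37.96 and 32.6 in UF. In these 3 windows the lowest UF library was above the highest IP library by more than the spread within either group. The windows were chosen by their lower regions in these same libraries, so such a gap was favoured by the choice. Windows between Serp2 and Lacc1 (8 lower and 2 higher of 13) and between Cfap54 and Cdk17 (8 of 12) complete the list.

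The same contrast was available in 8 libraries from mice given 3 mg/kg amphetamine instead of saline, with no library in common, at 1.39 to 9.38 M counts in IP and 4.24 to 15.1 M in UF. There 2108 of 16598 genes were higher (12.7%) and 2580 lower (15.5%). Of the genes higher in saline mice 1929 were tested in both, 1926 had the same direction and 1547 were called. That is 80.2% of these 1929 saline calls and 73.6% of the 2103 higher amphetamine calls tested in both. Of the lower genes 2160 were tested in both, 2159 had the same direction and 1861 were called (86.2% of these 2160 and 72.2% of 2576 lower amphetamine calls). None was called in the opposite direction. The test of a difference between the contrasts, an interaction term in edgeR, called 0 of 17110 genes (0.00%). At an unadjusted p under 0.05 it gave 76 genes (0.444%), and both numbers were the same with DESeq2's size factors. A threshold of 0.05 gives about 5% of genes by chance, so this test was conservative, and its 0 calls do not show that the contrasts were equal. With a block for each pair of one number within a treatment, 0 genes were called and 230 had an unadjusted p under 0.05 (1.34%). Among the genes above, Avp was at 2.86 ± 0.66, Kmo at 2.95 ± 0.43, Kcnmb2 at 2.03 ± 0.17, Lhcgr at -1.76 ± 0.22 and Jcad at -1.31 ± 0.13 in amphetamine mice, each called in the same direction as after saline.

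**Figure D5:**
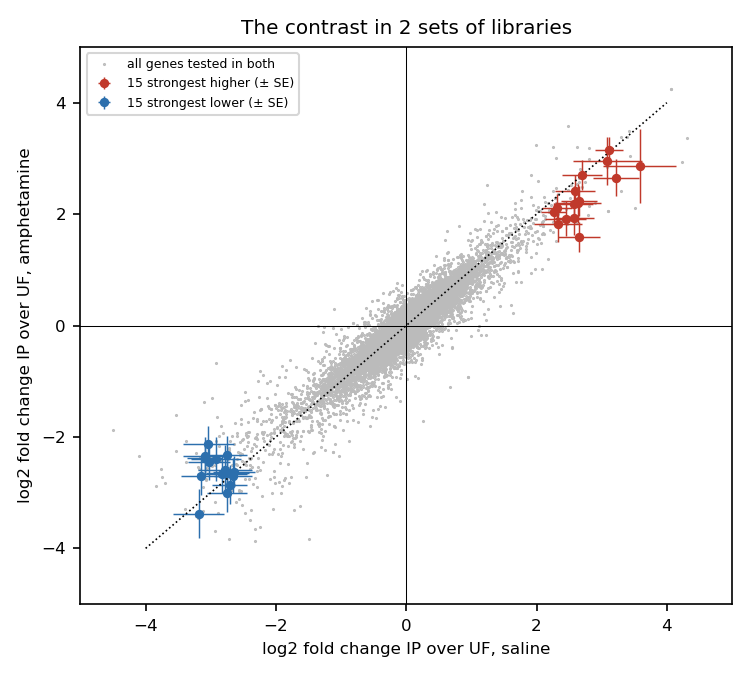
Log2 fold change of PV IP over UF per gene in saline libraries (horizontal) and in amphetamine libraries (vertical). Grey points are all genes tested in both, and red and blue points with standard errors are the 15 strongest higher and 15 strongest lower genes of the saline contrast, all of which lie on the same side of 0 in both.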

How the data were processed

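The labels place 4 PV IP and 4 PV UF libraries in the saline groups, and the deposited table holds raw read counts per 200 bp region, which the authors made from ATAC-seq reads. Reads were trimmed with cutadapt 1.8.3, aligned to mm10 with Bowtie2 2.3.4.3 and peaks were called with MACS2 2.1.2, per the submitters' processing notes. How the regions were merged across libraries and whether reads were shifted for the Tn5 cut are not given in the sources used here. Depth was 5.22 to 14.7 M counts per library. The table holds 205848 regions, and 2 other tables of the series were not used here.

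Counts were tested per region and, summed, per protein-coding gene with 2 kb on either side (RefSeq, GRCm38.p6) with edgeR 4.0.16 (filterByExpr at 10 counts, TMM scaling, robust quasi-likelihood test, Benjamini-Hochberg adjustment over all features, threshold 0.05), in R 4.3.3. Levels are CPM over library sizes scaled by TMM. Of 21887 annotated genes 17183 held a region and 16957 passed the filter. Class shares were compared by exact permutation over libraries in scipy 1.17.1. The median standard errors of 0.40 for regions and 0.17 for genes give the precision. Tested on simulated data of 16957 genes, 77.0% of 100 genes changed by 1 on the log2 scale and 11.1% of 99 changed by 0.5 were called, with 3 false calls. Few genes were changed there, whereas 25.0% of genes were called in the data, and libraries were drawn without pairing. These shares therefore do not give the sensitivity of the test on the data.

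Libraries of the same number deviated together over genes (correlations of 0.493, 0.625, 0.244 and 0.212) and regions (0.309, 0.327, 0.102 and 0.180). The replicate number was therefore used as a block in an alternative fit. Calls, errors and adjusted p-values are from the fit without this block, unless the block is named. The labels do not say that such a pair came from a single mouse. The blocked fit is given where it moved a count by over 1.5 times.

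Named genes were the 15 strongest each way with an average log2 CPM of at least 3 and separate groups (symbols of predicted genes left out), the extremes of each family with members of known role, the 10 most uniform loci each way with at least 10 regions, and the 5 loci with most calls both ways. Regions were the 8 distal ones of smallest p each way with at most 1 per nearest gene, and 5 windows of 50 kb each way. Further called family members of known role were chosen after their values were seen. Members, gene lists, families and motifs were all chosen with earlier results of these data known. The alternatives were other scalings, DESeq2 1.42.0, no filter, the block, gene ends or bodies alone, other distance limits and leaving out each library. The blocked test of the amphetamine difference, the shares of chromosomes X and Y, the motif counts and the marker counts without 1 library were added after seeing the data.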

Additional observations from a re-analysis of the deposited data

Results flagged for a closer look

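In a group of 4 libraries, 1 library stood far from the other 3 in 24 of 454 groups examined (5.29%), by the gap to its nearest neighbour as a share of the group's range (above Dixon's 95% limit). Chance marks about 1 group in 20, so the number as a whole is near what chance gives. UF replicate 1 was the library in 6 cases, UF replicate 5 in 5, IP replicate 4 in 4, IP replicate 5 in 3, IP replicate 1 and UF replicate 4 in 2 each, and IP replicate 2 and UF replicate 2 in 1 each.

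In UF replicate 1, Slc47a2 was at 30.5 CPM where the other UF libraries had 23.1 to 24.1, Akain1 at 20.7 CPM (others 25.7 to 26.6), Tyro3 at 139.5 CPM (119.8 to 122) and Slc1a2 at 119 CPM (96.1 to 99.1). In the same library the distal region nearest to Utrn was at 3.95 CPM (3.63 to 3.67) and the higher region shown in Kcnmb2 at 1.202 CPM (0.444 to 0.571). UF replicate 5 had Scn8a at 146 CPM (175.5 to 176), Thra at 153 CPM (163 to 165), Adcy7 at 25.99 CPM (19.4 to 20.02), the promoter region of Esrrb at 6.67 CPM (4.12 to 4.37) and the summed mural markers at 871 CPM (273 to 311). UF replicate 4 had Scn1a at 72.6 CPM (62.7 to 63.7) and Foxp1 at 363 CPM (389 to 393), and UF replicate 2 had Cacna1a at 299.9 CPM (339 to 344).

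Among IP libraries, replicate 4 had Scn1a at 88.3 CPM (119.8 to 122.9), Foxq1 at 24.5 CPM (7.89 to 10.5), Nr4a1 at 56.7 CPM (40.2 to 42.3) and the promoter region of Kcnip3 at 7.91 CPM (4.79 to 5.01). Replicate 5 had Kcng3 at 13.1 CPM (22.1 to 22.4), Cplx2 at 132 CPM (99.1 to 104) and the higher region shown in Dab1 at 22.1 CPM (9.08 to 10.8). Replicate 1 had the gene-free window between Iqsec3 and A2m at 93.6 summed CPM (70.7 to 73.8) and the promoter region of Cd68 at 4.74 CPM (1.95 to 2.06). Replicate 2 had Nefm at 86.8 CPM (60.3 to 62.1). In all 15 genes named here the IP and UF libraries did not overlap, with these libraries included, against 26.8% of all genes. Named genes were chosen by separation, by calls or after their values were seen, which favoured this. It therefore does not measure the weight of these libraries.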

How the results depend on the processing

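All 160 named genes kept their direction and side of the threshold with DESeq2's size factors, DESeq2's Wald test, no filter on low counts, all 16 IP and UF libraries in the fit and the replicate block. With library totals 159 did, as did 144 of 150 from gene bodies without flanks and 99 of 128 from gene ends alone. Leaving out each library in turn kept 1259 of 1280 outcomes, and all 16 named regions kept theirs in every such fit. The named regions were chosen for the smallest p and separate groups in these libraries, which made a lost call unlikely. With the replicate block 3100 genes were higher and 3511 lower, and the block changed no call of a named gene or region. At gene ends alone 1155 were higher and 1071 lower, and Kcnc1 (0.15), Ncan (0.25), Nr4a1 (0.31), Adcy5 (0.22) and Slc1a2 (0.0043) had the opposite sign there. Called shares of distal regions with a limit of 50 kb were 57.0% beyond it and 46.2% nearer. The chromosome X difference of -0.181 percentage points had an exact p of 0.125 with the block. For results that did not hold the cause was not tested.

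Leaving out 1 library gave 1409 to 2269 higher and 1720 to 2388 lower genes, and 37890 to 43248 higher and 35584 to 47132 lower regions. Uncalled gene sums ranged from -0.133 to 0.0283 for Auts2, -0.0651 to 0.149 for Dab1 and -0.138 to 0.0379 for Kcnc1 on the log2 scale. Differences in class shares, IP minus UF in percentage points, ranged from -2.16 to 0.298 at gene ends, -0.243 to 1.55 in gene bodies, -0.0312 to 0.547 outside genes and -0.0235 to 0.747 over 100 kb away. Of 128 family counts (each direction apart) 41 moved by over 1.5 times with the block, 69 at gene ends alone and 145 of 1024 when 1 library was left out. DESeq2's Wald test moved 10, the fit of 16 libraries 11, DESeq2's size factors 6, library totals 5 and no filter 1. A block for the amphetamine contrast alone was not run, and amphetamine libraries of the same number had correlations of 0.0933, 0.550, 0.209 and 0.0963 over genes. The shallowest libraries, IP replicate 1 and UF replicate 1 (5.22 and 5.67 M counts), and median standard errors of 0.17 for genes and 0.40 for regions limit what could be called.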
